A study of Mus musculus with 6 samples.

Results

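The insulin-like growth factor (Igf) axis of the infarcted ventricle was examined through 10 genes taken from the deposited expression table by name, out of the 26012 genes it lists. They are the ligands Igf1 and Igf2, the receptors Igf1r and Igf2r, and the binding proteins Igfbp2, Igfbp3, Igfbp4, Igfbp5, Igfbp6 and Igfbp7. All 10 passed the filter of a mean of at least 1 normalized count. The tissue was the ventricle of male C57BL/6 mice, 8 weeks of age, whose left anterior descending coronary artery was ligated and which received 10 μg of a miRNA mimic per heart by injection into the ventricular wall around the infarct. Mimics are synthetic RNAs that stand in for a mature miRNA. The hearts were collected 4 days after myocardial infarction (MI), 3 injected with control mimic and 3 with a mixture of miR-19a and miR-19b mimics, so that all 6 hearts carried an infarct. Polyadenylated RNA was sequenced, with between 19398196 and 23645308 reads counted on genes per heart. The values are normalized counts, that is, reads per gene divided by a size factor for the library. All 12 cardiomyocyte markers of a list drawn up for this tissue were expressed, and their sum ran from 622089 to 806486 normalized counts in control mimic hearts and from 378827 to 1109458 in miR-19a/19b mimic hearts, where replicate 3 was the lowest of all 6 hearts and replicate 1 highest. In such bulk tissue, fewer cells of a type and less RNA per cell cannot be told apart.

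Igf1 and Igf2 are small secreted proteins related to insulin. Both activate Igf1r, a receptor tyrosine kinase that signals through the insulin receptor substrates to PI3K, Akt and mTOR and promotes growth and survival of cardiomyocytes. Igf2r does not signal in this way. It takes up Igf2 for degradation in lysosomes, and it also sorts lysosomal enzymes by their mannose 6-phosphate tags. The binding proteins hold the ligands outside the cell, where they can prolong their life, keep them from the receptor or release them when proteases cut the binding protein. In the healing infarct, macrophages and fibroblasts are known sources of Igf1.

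Since the hearts differed in the mimic they received, the sequences of the miRNAs and of their possible target sites in these genes are given first. The mature miRNAs, from RefSeq on GRCm38.p6, are shown 5′ to 3′ with the seed, bases 2 to 8, in capitals. The mouse genome encodes miR-19a on chromosome 14 and miR-19b on chromosomes 14 and X.

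miR-19a-3p: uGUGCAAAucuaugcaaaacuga

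miR-19b-3p: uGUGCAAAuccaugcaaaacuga

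The 23-base miRNAs have the same seed and differ by the single substitution U11C, counted from the 5′ end with the base of miR-19a first. The longest annotated 3′ UTR of each gene (GENCODE M21, GRCm38) was searched on the transcript's own strand for TTTGCACA, the 8-mer, and for the 7-mers TTTGCAC and TTGCACA, each counted only where it did not lie within a longer match. Of the 10 genes, 4 held a match. These were Igf1 and Igf2r with 2 matches each, and Igfbp3 and Igfbp4 with 1 each. Among all 15867 tested genes with an annotated 3′ UTR, 19.3% held a match and 5.81% an 8-mer, and longer UTRs hold more of them. The 6 sites are printed because they are where the injected miRNAs could pair by their seed. Each line ends with the match, in capitals, after the bases that precede it in the RNA.

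Igf1, 7-mer: ttaggagtgtttgtttaaaaagcTTTGCAC

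Igf1, 8-mer: atatacctaccctacatgtgcaTTTGCACA

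Igf2r, 7-mer: cctcatctctgtagttgcagctcTTTGCAC

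Igf2r, 8-mer: ttcgacctataagaagccttaaTTTGCACA

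Igfbp3, 8-mer: atggagctcaaatatgccttatTTTGCACA

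Igfbp4, 8-mer: agagctggggcacagcctagagTTTGCACA

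The Igf1 matches lay on the plus strand at chr10:87930929-87930935 and chr10:87934006-87934013, at bases 195 and 3272 of a 3′ UTR of 6308 bases. A match was present in 53.1% of genes with a 3′ UTR of similar length (80% to 125% of its length). The Igf2r matches lay on the minus strand at chr17:12683011-12683017 and chr17:12682766-12682773, in a 3′ UTR of 1304 bases, where 18.3% of genes of similar UTR length had a match. That of Igfbp3 was at chr11:7207472-7207479 on the minus strand, 42 bases into a 3′ UTR of 1435 bases (19% of genes of similar UTR length had a match), and that of Igfbp4 at chr11:99052926-99052933 on the plus strand, 1347 bases into 2813 bases (32.8%). No match was found in the 3′ UTR windows of Igf2, Igf1r, Igfbp2, Igfbp5, Igfbp6 and Igfbp7, although that of Igf1r was the longest of the 10 at 7267 bases. Of genes of similar UTR length, 60.4% had a match for Igf1r, 45.8% for Igfbp5 and 35.4% for Igf2. The shares were 3.23% for Igfbp2, 2.43% for Igfbp6 and 2.11% for Igfbp7, whose 3′ UTRs are short. A match is a description of the sequence, and binding was not measured.

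To compare levels between genes, normalized counts were divided by the deposited gene length. On this scale Igfbp7, which binds Igfs weakly and is abundant in vessel walls and matrix, exceeded all other members. Its level was 17561 ± 4410 normalized counts per kilobase (SD, n = 6 hearts), above that of 99.8% of the genes tested. Igfbp4 followed at 1290 ± 162 per kilobase and Igf2r at 821 ± 48.7. The ranges of these 3 genes over the 6 hearts did not overlap. Igfbp3 (611 ± 101), Igfbp5 (451 ± 94.7), Igfbp6 (362 ± 69.8), Igf2 (241 ± 64.8) and Igf1 (165 ± 19.02) came next, and each overlapped in range with its neighbour in this order. Igfbp3 was nevertheless above Igfbp5 in 6 of 6 hearts, while Igfbp5 was above Igfbp6, Igfbp6 above Igf2 and Igf2 above Igf1 in 5 of 6 hearts each. Igf1r had 97.1 ± 11.7 normalized counts per kilobase, below Igf1 in every heart, and Igfbp2 only 10.2 ± 5.83. The order was the same when the longest annotated transcript replaced the deposited gene length, a choice made after seeing the data.

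**Figure D1:**
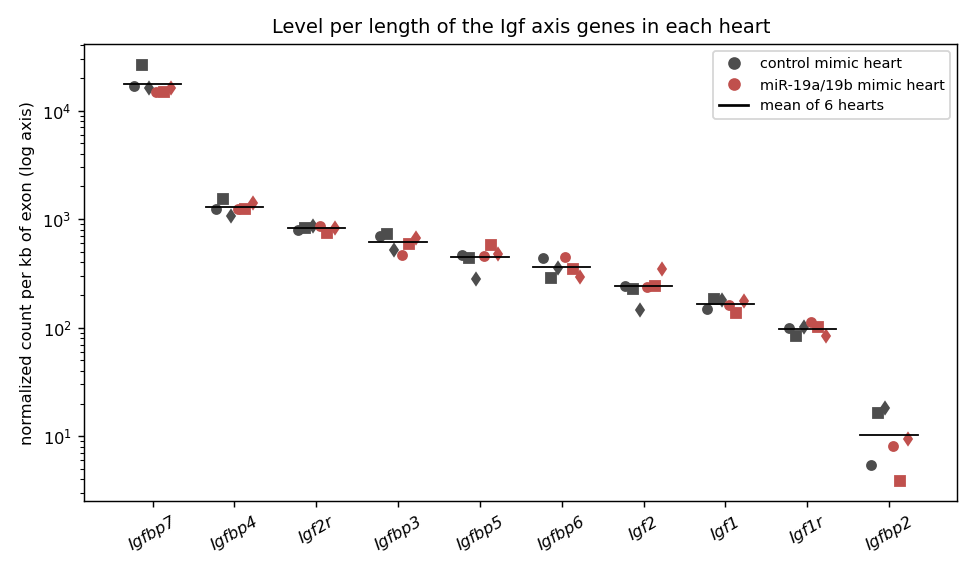
Level of each Igf axis gene per kilobase of gene length (normalized count per kb, log axis) in the 6 hearts, ordered by the mean (black line). Grey points are control mimic hearts and red points miR-19a/19b mimic hearts, with circles, squares and diamonds for replicates 1, 2 and 3. Igfbp7 is at 14815 per kb or more in every heart, and Igfbp2 below 18.3.

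Igfbp7 accounted for between 84.4% and 89.8% of the summed level per kilobase of the 6 binding proteins. Of the remaining 5, Igfbp4 made up between 43.4% and 51.1%, and Igfbp3 between 18.0% and 24.5%. The summed level of these 5 was between 5.46 and 7.34 times that of both ligands together. The level of Igf2r was between 7.34 and 9.88 times that of Igf1r. Among the ligands, the ratio of Igf2 to Igf1 was 1.63, 1.24 and 0.796 in control mimic replicates 1, 2 and 3. In replicates 1, 2 and 3 of the miR-19a/19b mimic group it was 1.49, 1.77 and 1.98. Igf2 was thus the more abundant ligand transcript per length in all hearts but control mimic replicate 3. These values compare RNA levels, and protein was not measured.

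None of the 10 genes passed the test for a difference between the groups. With limma on log2 values, 0 of the 10 had an adjusted p-value under 0.05, and 0 an unadjusted one. Over all 21126 genes tested, 0% passed the adjusted threshold, and 2.63% were lower and 1.39% higher at the unadjusted one. DESeq2's Wald test, edgeR's quasi-likelihood test and limma-voom on the recovered reads likewise called 0 of the 10. The adjusted p-value of each was 0.9996 in limma. Of the 10, 5 had a positive and 5 a negative log2 fold change, with a median of -0.01 against 0.00 over all genes tested. The 95% confidence intervals below show how large a difference each gene could hold, since a p-value over the threshold does not show that the groups were alike. An exact permutation test of a single gene in 3 hearts against 3 cannot give a two-sided p-value below 0.1. Each replicate is a separate heart. The standard errors, intervals and p-values from limma combine a gene's spread among these hearts with a trend of spread over all genes tested. For a gene with little spread of its own, the standard error can therefore exceed what its hearts alone would give.

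**Figure D2:**
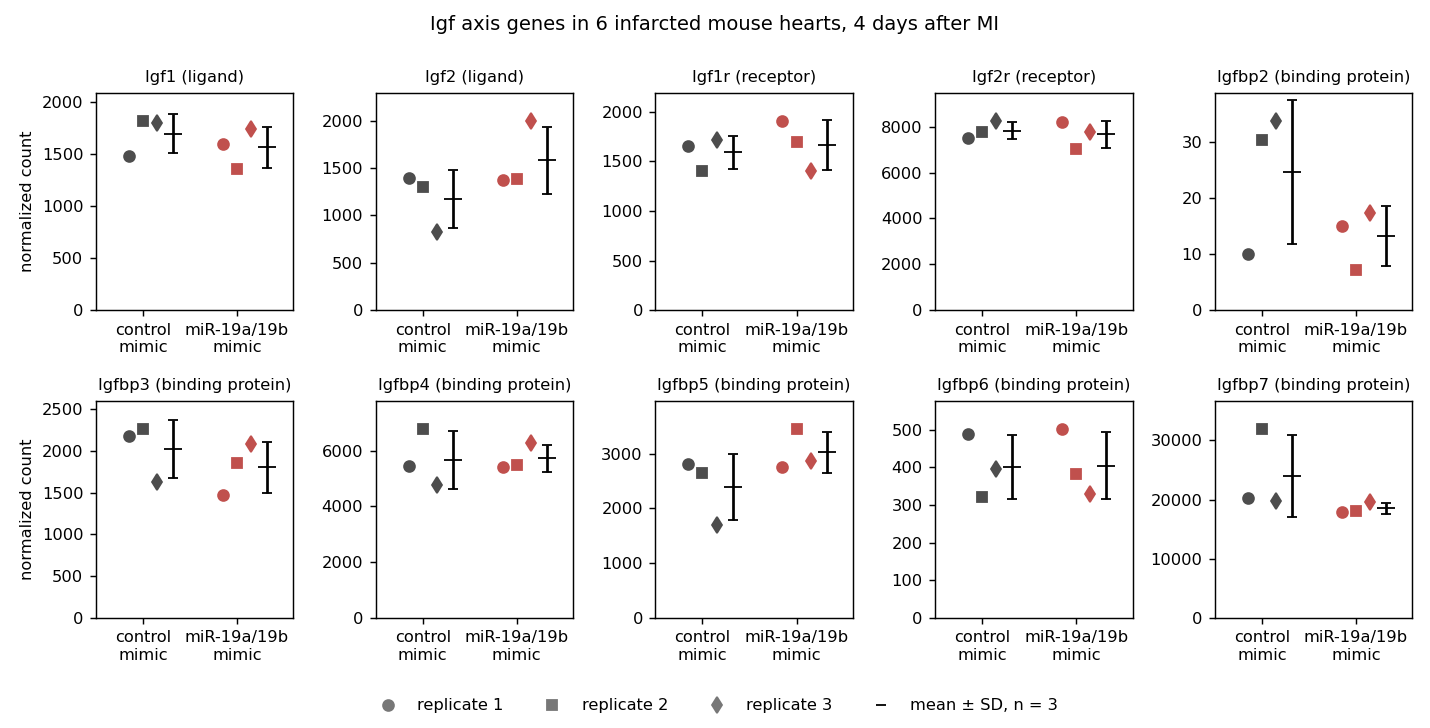
Normalized count (linear axes from 0) of each Igf axis gene in each heart, with the mean and SD of the 3 hearts of a group beside them. The groups overlap for every gene but Igfbp7, and control mimic replicate 3 is lowest for Igf2, Igfbp4 and Igfbp5.

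Igf1 (ENSMUSG00000020053, chr10:87858265-87937042, plus strand, GRCm38), the ligand that growth hormone induces in many tissues, had 1477, 1814 and 1798 normalized counts in control mimic replicates 1, 2 and 3 against 1594, 1352 and 1744 in replicates 1, 2 and 3 of the miR-19a/19b mimic group. The groups overlapped, with the lowest value in miR-19a/19b mimic replicate 2. The means were 1696 ± 191 (SD, n = 3) and 1563 ± 198, a log2 fold change of -0.12 (standard error 0.13). Leaving out single hearts moved it from -0.22 (without control mimic replicate 1) to -0.019 (without miR-19a/19b mimic replicate 2). The 95% confidence interval, from 0.75-fold to 1.13-fold, does not include a fall to 0.5-fold. Its 3′ UTR is one of those with both an 8-mer and a 7-mer match.

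Igf2 (ENSMUSG00000048583, chr7:142650766-142666816, minus strand), the fetal growth factor expressed from the paternal allele, varied more. The normalized counts were 1394, 1295 and 827 in control mimic hearts and 1369, 1383 and 1993 in miR-19a/19b mimic hearts, replicates 1 to 3 in each case. The highest and the lowest heart belonged to different groups, while the other 4 lay between 1295 and 1394. The log2 fold change was 0.45 (standard error 0.22, interval 0.97-fold to 1.91-fold), and the unadjusted p-value from limma, 0.0703, was the smallest of the 10. Without control mimic replicate 3 the log2 fold change was 0.21, and without miR-19a/19b mimic replicate 3 it was 0.27. In GENCODE M21, 62.8% of the exon bases of Igf2 are shared with Gm49394 on the same strand, so the assignment of its reads depends on the annotation used for counting. Gm49394 is not among the 26012 genes with deposited values.

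The noncoding RNA H19 is expressed from the maternal allele of the same imprinted domain and shares enhancers with Igf2. It had 2196, 2155 and 2529 normalized counts in control mimic hearts and 3265, 2367 and 3986 in miR-19a/19b mimic hearts, so that both RNAs peaked in miR-19a/19b mimic replicate 3. Control mimic replicate 3, lowest for Igf2, was the highest control mimic heart for H19. The log2 fold change of H19 was 0.45 (standard error 0.18, unadjusted p = 0.0323 and adjusted p = 0.9996 from limma), the groups overlapped, and the unadjusted p-value was over 0.05 without control mimic replicate 1 or 2 or without miR-19a/19b mimic replicate 1 or 3.

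Igf1r (ENSMUSG00000005533, chr7:67952827-68233668, plus strand), the signalling receptor, had 1655, 1399 and 1720 normalized counts in control mimic hearts and 1905, 1699 and 1402 in miR-19a/19b mimic hearts. The lowest heart of each group had almost the same count. The means were 1591 ± 169 and 1669 ± 253, a log2 fold change of 0.06 with an interval from 0.84-fold to 1.3-fold. Igf2r (ENSMUSG00000023830, chr17:12682406-12769664, minus strand) was the steadiest of the 10. It had 7500, 7768 and 8238 normalized counts in control mimic hearts and 8205, 7010 and 7783 in miR-19a/19b mimic hearts, and the highest of the 6 hearts was only 1.18 times the lowest. Its log2 fold change was -0.03 (standard error 0.12), with an interval from 0.81-fold to 1.18-fold. Its 3′ UTR also holds an 8-mer and a 7-mer match. Igf2r lies on the strand opposite to Airn, the noncoding RNA that silences the paternal Igf2r allele in many tissues. Airn had between 245 and 373 normalized counts and shares no exon bases with Igf2r.

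Among the binding proteins, Igfbp7 (ENSMUSG00000036256, chr5:77349240-77408041, minus strand) was the single member whose groups did not overlap. It had 20182, 31948 and 19681.5 normalized counts in control mimic hearts and 17912, 18038 and 19625 in miR-19a/19b mimic hearts, so that the closest hearts of the groups were nearly equal. Groups that did not overlap were found for 5.3% of all genes tested with lower and 3.9% with higher values in miR-19a/19b mimic hearts, against 1 and 0 of the 10 members. The log2 fold change was -0.33 (standard error 0.21, interval 0.57-fold to 1.1-fold, exact permutation test p = 0.1). Without control mimic replicate 2, its highest heart, the value was -0.11. In that heart the summed macrophage markers, at 109228 normalized counts, were the second highest of the 6 hearts, and the fibroblast sum of 737210 was the third highest. The smooth muscle and pericyte sum of 42135 and the cardiomyocyte sum of 622089 were each the second lowest, and the endothelial sum of 39524 was the lowest. The part of these cell types in the Igfbp7 value was not tested. The exons of Igfbp7 share 7.03% of their bases with Polr2b on the opposite strand, which had between 1150 and 1272 normalized counts, far fewer than Igfbp7.

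Igfbp5 (ENSMUSG00000026185, chr1:72857932-72874884, minus strand), which binds matrix and both Igfs, had 2818, 2654 and 1700 normalized counts in control mimic hearts and 2760, 3455 and 2870 in miR-19a/19b mimic hearts. As for Igf2, control mimic replicate 3 stood below the other 5 hearts. Its log2 fold change was 0.37 (standard error 0.19, interval 0.96-fold to 1.74-fold), and 0.14 without that heart. Its neighbour Igfbp2 (ENSMUSG00000039323, chr1:72824503-72852474, plus strand) was by far the scarcest member. Its normalized counts were 9.95, 30.3 and 33.6 in control mimic hearts and 15.1, 7.22 and 17.3 in miR-19a/19b mimic hearts. The groups overlapped through control mimic replicate 1. The log2 fold change of -0.77 had a standard error of 0.51 and an interval from 0.27-fold to 1.3-fold, so neither a fall to 0.5-fold nor a modest gain could be told from no change. Without control mimic replicate 1 the log2 fold change was -1.29 (unadjusted p = 0.0176 and adjusted p = 0.9993 from limma), and without miR-19a/19b mimic replicate 2 it was -0.41.

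Igfbp3, Igfbp4 and Igfbp6 had log2 fold changes between -0.16 and 0.03. Igfbp3 (ENSMUSG00000020427, chr11:7206086-7213923, minus strand), the main carrier of Igfs in serum, had 2175, 2264 and 1626 normalized counts in control mimic hearts and 1473, 1858 and 2077 in miR-19a/19b mimic hearts. The means of 2022 ± 346 and 1803 ± 306 lay closer together than the SD of either group. The log2 fold change was -0.16 (standard error 0.17, interval 0.69-fold to 1.16-fold). It was -0.31 without control mimic replicate 3 and -0.026 without miR-19a/19b mimic replicate 1. For Igfbp4 (ENSMUSG00000017493, chr11:99041244-99054392, plus strand), a binding protein that restrains Igfs until the protease Pappa cuts it, the normalized counts were 5442, 6786 and 4769 against 5418, 5488 and 6264. Its log2 fold change was 0.03 (interval 0.81-fold to 1.29-fold), with all 3 miR-19a/19b mimic hearts inside the range of the control mimic hearts. Igfbp6 (ENSMUSG00000023046, chr15:102144362-102149511, plus strand), which prefers Igf2 over Igf1, had 489, 320 and 396 normalized counts in control mimic hearts and 502, 382 and 328 in miR-19a/19b mimic hearts, for a log2 difference of 0.01 (interval 0.74-fold to 1.37-fold).

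The 4 genes with a miR-19 seed match had log2 fold changes between -0.16 and 0.03, with 3 of the 4 negative. The 6 genes without a match had values between -0.77 and 0.45, with 2 of the 6 negative. Over all genes tested, 10398 of 21126 were negative. The signs of Igf2r and Igfbp4, with a match, and of Igf1r and Igfbp6, without one, changed when single hearts were left out. The range of the matched genes lay inside that of the unmatched genes, and every confidence interval of both sets included 0.

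**Figure D3:**
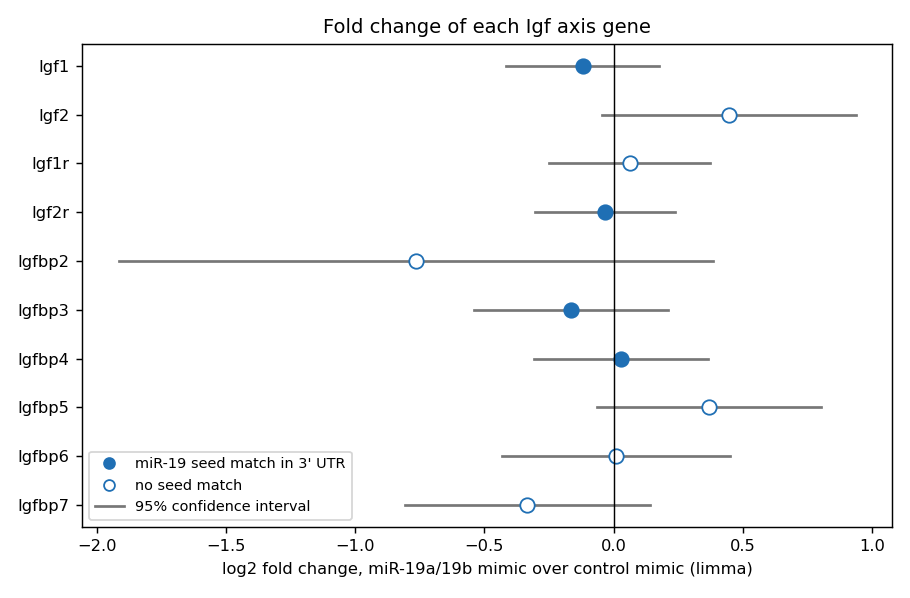
Log2 fold change of each Igf axis gene, miR-19a/19b mimic over control mimic hearts (3 against 3), with its 95% confidence interval from limma. Filled points mark genes with a miR-19 seed match in the longest annotated 3′ UTR, and every interval includes 0, from the narrow one of Igf2r to the widest, of Igfbp2.

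The levels of the 10 genes were set beside the summed markers of the main cell types. Across 6 hearts, 10 genes and 5 marker lists gave 50 relations, of which 0 had an adjusted p-value under 0.05 in exact permutation tests (Benjamini and Hochberg). With 6 hearts, the smallest p-value the exact test can give is too large for a lone relation to pass after adjustment over 50. Other relations would have to come near it too, so the count of 0 does not show that relations are absent. The 3 smallest unadjusted p-values of Pearson's r are given here. Both Igf1r and the cardiomyocyte list were highest in miR-19a/19b mimic replicate 1, and the relation had Pearson's r = 0.88 (exact permutation p = 0.0236, adjusted 0.431) and Spearman's rho = 0.89 (p = 0.0333, adjusted 0.556). Without the 2 hearts farthest from the median of that list, r was 0.80. Against the summed macrophage markers, Igf1r had r = -0.97 (exact permutation p = 0.0111, adjusted 0.431) and rho = -0.77 (p = 0.103, adjusted 0.575), and r = -0.93 without the 2 farthest hearts. Igf1 ran with the fibroblast list at r = 0.85 (exact permutation p = 0.0264, adjusted 0.431) and rho = 0.77 (p = 0.103, adjusted 0.575), and at 0.87 without the 2 farthest hearts. By rank, the smallest p-value was that of Igf1 with the endothelial list, at rho = -0.94 (exact permutation p = 0.0167, adjusted 0.556), where r was -0.73 (p = 0.0889, adjusted 0.524) and -0.98 without the 2 farthest hearts. Of the other marker lists, that of T cells was lower in sum in miR-19a/19b mimic hearts. The sums there were between 198 and 224 normalized counts, against 260 to 367 in control mimic hearts. All 8 T cell genes had a negative log2 fold change, with a median of -0.61. After adjustment limma called 0 of the 8, and 0 of all 21126 genes tested. Before adjustment 3 of the 8 passed the 0.05 threshold as lower, where 2.63% of all genes tested did. For 4 of the 8 the groups did not overlap, with lower values, against 5.3% of all genes tested. The part of the T cell list in the values of the 10 genes was not tested. With the mean of each group removed from both measures, a choice made after seeing the data, r was 0.89 for Igf1r with the cardiomyocyte list and -0.97 with the macrophage list, and for Igf1 it was 0.90 with the fibroblast list and -0.78 with the endothelial list. These relations were picked from the 50 in the same hearts, so these values are no separate test of them. The cardiomyocyte and macrophage lists had opposite extremes in miR-19a/19b mimic replicates 1 and 3. The log2 differences from the mean were 0.60 and -0.95 for cardiomyocytes, and -0.33 and 0.28 for macrophages. The relations of Igf1r with these lists are therefore not separate from each other. With 3 hearts a group, r was not computed in each group alone.

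**Figure D4:**
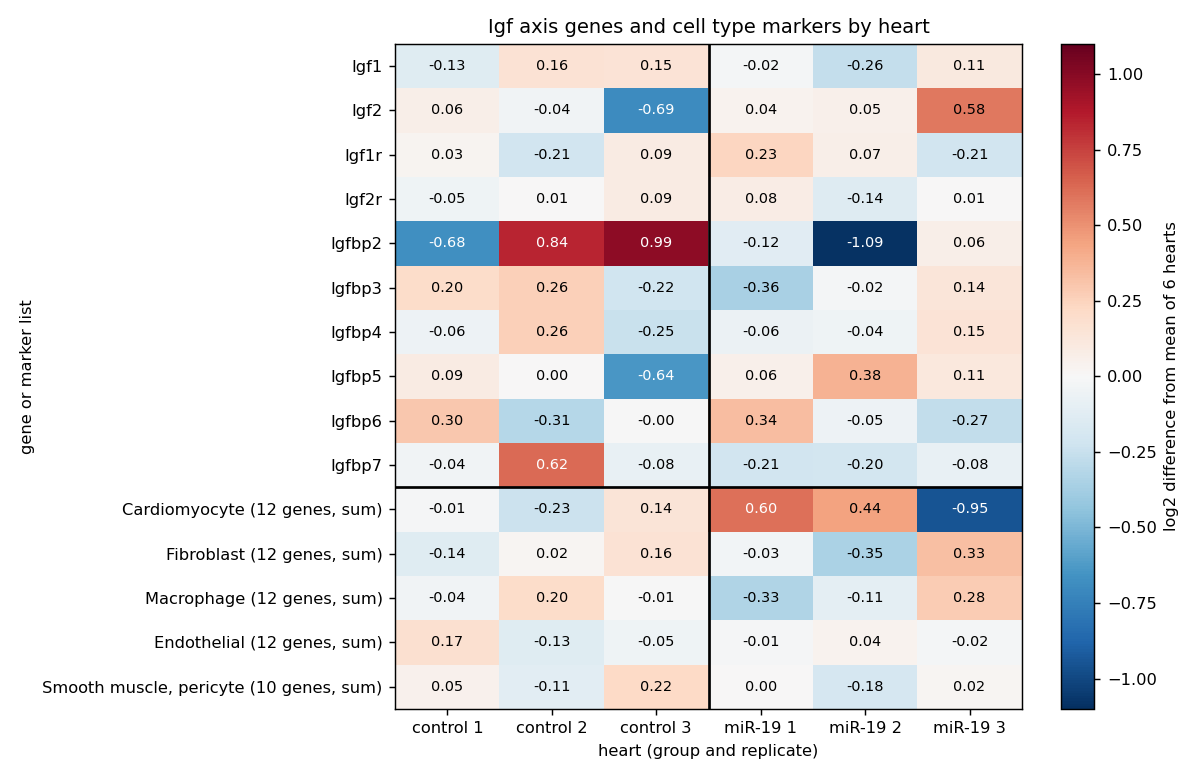
Log2 difference of each heart from the mean of the 6 hearts, for the 10 Igf axis genes (above the line, log2 of normalized count + 1) and for the summed markers of 5 cell types (below it). Columns are hearts by group and replicate; cardiomyocyte markers run from -0.95 in miR-19 replicate 3 to 0.60 in replicate 1, and Igf1r from -0.21 to 0.23 in the same hearts.

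The genes whose pattern over the 6 hearts was most like that of Igf1, among 11607 genes with a mean of at least 100 normalized counts, were Gcnt4 (r = 0.997), Col14a1 (r = 0.996) and P2rx7 (r = 0.99). Col14a1, a collagen that associates with fibrils, had 5440, 7326 and 7301 normalized counts in control mimic hearts and 6335, 4834 and 7068 in miR-19a/19b mimic hearts, the same order of hearts as Igf1. For Igf2 they were Fam195b (r = 0.99), Zfp707 (r = 0.98) and Trim37 (r = 0.98), and Zfp707 ran from 135 normalized counts in control mimic replicate 3 to 201 in miR-19a/19b mimic replicate 3, the hearts in which Igf2 was lowest and highest. These values of r describe likeness over 6 hearts and carry no test.

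The rest of the pathway was followed through 7 lists with 84 tested genes, of which 33 had a negative and 51 a positive log2 fold change. In limma 0 of the 84 passed at an adjusted p-value under 0.05, and at the unadjusted threshold 0 were lower and 1, H19, was higher, where 2.63% of all genes tested were lower and 1.39% higher. Groups were fully separate for 3 of the 84, or 3.57%, with lower values (Htra1, Sos1 and Jak2) and for 1 of the 84, or 1.19%, with higher values (Akt1), against 5.3% and 3.9% of all genes tested, so these shares were not above the background. DESeq2's Wald test, edgeR's quasi-likelihood test and limma-voom also called 0. Igfbp1, Ins1 and Irs4 were not analysed here, and Ins2 and Adam28 fell under the filter on low values.

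Proteases that cut Igfbps, together with their inhibitors (9 genes tested, median log2 fold change -0.05, 7 negative), held Htra1, a secreted serine protease that cuts Igfbps. Htra1 had 2650, 2546 and 2663 normalized counts in control mimic hearts and 2472, 2323 and 1942 in miR-19a/19b mimic hearts, for a log2 difference of -0.23 (standard error 0.11, unadjusted p = 0.0763) without overlap of the groups. Adam12 in the same list had -0.15. The insulin receptor family and its adaptors (13 genes, median -0.02) included Sos1, the exchange factor that links the adaptor Grb2 to Ras, with 675, 684 and 701 against 596, 582 and 607 normalized counts. The groups did not overlap, and the log2 fold change was -0.21 (standard error 0.09, unadjusted p = 0.0522). Irs1, which couples Igf1r to PI3K, ranged from 345 to 365 normalized counts in control mimic hearts and from 207 to 391 in miR-19a/19b mimic hearts, with a log2 difference of -0.26 (standard error 0.21).

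PI3K, Akt and mTOR genes (24 tested, median 0.02, 13 positive) spanned log2 fold changes from -0.23 for Pik3cb, a catalytic subunit of PI3K, to 0.21 for Akt2, a kinase of insulin signalling. Its relative Akt1 had 6502, 6330 and 6500.4 normalized counts in control mimic hearts against 6893, 6718 and 7065 in the miR-19a/19b mimic group. The groups did not overlap, with means of 6444 ± 99.0 (SD, n = 3) and 6892 ± 174. The log2 fold change was 0.10 (standard error 0.10, unadjusted p = 0.381 from limma). That standard error includes limma's trend over all genes and does not describe these hearts alone. In the growth hormone arm (6 tested, median 0.03), Jak2, the kinase bound to the growth hormone receptor, had 1470, 1526 and 1441 normalized counts in control mimic hearts and 1358, 1320 and 1309 in miR-19a/19b mimic hearts, for a log2 difference of -0.15 (standard error 0.09, unadjusted p = 0.118) without overlap. Socs2, a feedback inhibitor of growth hormone signalling, had 0.07. Of the list of other Igf axis genes (6 tested, median 0.13), Igf2bp2, an RNA-binding protein of Igf2 mRNA, had 0.14. The imprinted growth genes (14 tested, median 0.11, 11 positive) are the list that held H19.

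The targets of FoxO transcription factors, which Akt keeps out of the nucleus, had the highest median of the 7 lists at 0.18 (12 tested, 11 positive), and 0 of the 12 passed at either threshold in limma. Among its genes with a mean of at least 100 normalized counts, the largest values were those of Pdk4 (0.50, standard error 0.50), the kinase that shuts off pyruvate dehydrogenase, and Klf15 (0.48, standard error 0.37), a metabolic transcription factor of the heart. Klf15 had 566, 485 and 550 normalized counts in control mimic hearts and 1129, 1008 and 357 in miR-19a/19b mimic hearts. Its lowest heart, miR-19a/19b mimic replicate 3, was also the heart with the lowest sum of cardiomyocyte markers, and the part of cell composition in these values was not tested. Without that heart, miR-19a/19b mimic replicates 1 and 2 remained against 3 control mimic hearts. These replicates had the highest cardiomyocyte sums of the 6 hearts, at 1109458 and 993614 normalized counts. In that fit Klf15 (1.001, adjusted p = 0.00648 from limma), Trim63 (0.72, adjusted p = 0.0425), Sesn1 (0.58, adjusted p = 0.0318) and the insulin receptor Insr (0.48, adjusted p = 0.048) were higher in miR-19a/19b mimic hearts. These were 4 of the 84 pathway genes, and 1.71% of all genes tested were higher, while 0 of the 10 Igf axis genes passed. The part of cell composition in these calls was not tested.

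**Figure D5:**
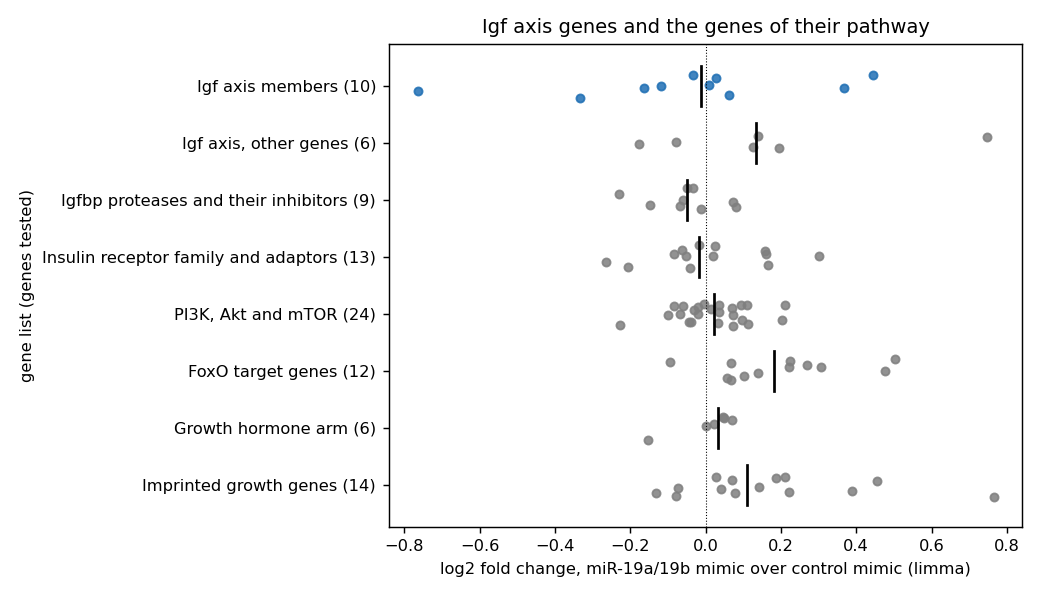
Log2 fold change (miR-19a/19b mimic over control mimic hearts, limma) of the 10 Igf axis genes and of the genes of 7 pathway lists, with the median of each list as a black bar and small vertical offsets for legibility. The medians lie between -0.05 and 0.18, and the highest is that of the FoxO target genes.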

How the data were processed

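The authors discarded low-quality and adapter-bearing reads, mapped those left with STAR (2.5.1b) and counted reads per gene with HTSeq (0.6.0). The deposited signal is the count divided by a library size factor, as DESeq2 makes it (1.10.1 in the submitters' processing notes). All values (100% within 0.01 of a read) were whole multiples of 1 read, so reads were recovered. The processing notes name mm9, but all 10 genes have the coordinates of GENCODE M21 (GRCm38). The log2 fold changes and p-values deposited by the authors come from their own comparison and were not used.

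The groups were compared with limma 3.58.1 (R 4.3.3, trended prior, no block) on log2(normalized count + 1) for the 21126 genes with a mean of at least 1, two-sided, with Benjamini and Hochberg adjustment over all of them and a threshold of 0.05. DESeq2 1.42.0 and edgeR 4.0.16 on recovered reads were alternatives. The fit was run on simulated reads to check the calculation. Their spread was set and not estimated from these hearts, so the run does not show which differences could be found here. The paper names edgeR for its tests. The sources used here do not state that counting used strand. The members and gene lists were chosen with earlier results of these data known. Besides the members, genes were named by rule: list genes with an unadjusted p-value under 0.05, or else up to 2 genes with the largest fold changes at a mean of at least 100, and the 3 genes most like Igf1, Igf2 and the member with the smallest p-value, which was Igf2. Akt1, Trim63, Sesn1, Insr, Igfn1, Igfals, Airn, Polr2b and Gm49394 were named after their values were seen.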

Additional observations from a re-analysis of the deposited data

How the results depend on the processing

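The 10 genes were recomputed under 15 other settings, which gave 149 values. In each, 0 of the 10 had an adjusted p-value under 0.05, and 3 values had an unadjusted one, those of Igf2, Igfbp2 and Igfbp5 without control mimic replicate 1. Direction was kept for Igf1, Igf2, Igfbp2, Igfbp3, Igfbp5 and Igfbp7 in every setting. Leaving out single hearts moved the log2 fold change from -0.038 to 0.18 for Igf1r, from -0.084 to 0.029 for Igf2r, from -0.090 to 0.16 for Igfbp4 and from -0.16 to 0.16 for Igfbp6, so that these 4 have no stable sign. Across all genes, 0 called in limma became 28 with DESeq2's Wald test, and between 0 and 515 with a heart left out, the highest without miR-19a/19b mimic replicate 3, where the 84 pathway genes had 4 calls (between 0 and 4 over the 6 hearts). Their cause was not tested.

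The replicate block (replicate number as a block) gave 0 genes called over all genes, 0 of the 10 and 0 pathway genes, with 434 lower and 207 higher genes at an unadjusted p-value under 0.05 against 555 and 293 without it. Same-numbered hearts did not deviate together (correlations across 11609 genes of 0.0563, -0.335 and -0.449 for replicates 1, 2 and 3), so the numbers were not taken as pairs. Igfbp2 gave no value with at least 10 normalized counts in every heart. With 3 hearts a group, differences smaller than the intervals given could not be shown, and low counts limit Igfbp2 most.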

Other observations

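Igfals, the acid-labile subunit that joins Igfbp3 in the circulating Igf complex, had 29.8, 18.5 and 42.0 normalized counts in control mimic hearts and 88.2, 65.0 and 19.9 in miR-19a/19b mimic hearts. Its 2 highest hearts, miR-19a/19b mimic replicates 1 and 2, were also those with the highest sums of cardiomyocyte markers, at 1109458 and 993614 normalized counts, and the heart with the lowest sum, replicate 3 at 378827, was among its 2 lowest.

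Igfn1, which shares its prefix with the Igf genes but encodes a muscle protein with immunoglobulin and fibronectin domains, had 16.1 normalized counts in miR-19a/19b mimic replicate 1 and at most 1.87 in the other 5 hearts. The summed markers of skeletal muscle were 3543 normalized counts in that heart and between 37.1 and 76.1 in the others.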
